A study of Mus musculus with 4 samples.

Results

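Hemidesmosomes are the junctions that fix the basal side of an epithelial cell to the basement membrane. At the cell surface, the integrin made of Itga6 and Itgb4 and the transmembrane collagen Col17a1 hold on to a laminin that contains the products of Lama3 and Lamb3, and inside the cell Dst and Plec link them to keratin filaments. The same laminin is also bound by the integrin of Itga3 and Itgb1, and Itgb1 pairs with many other integrin alpha chains, in mesenchymal as well as epithelial cells. Bcam is a further receptor for laminins on the basal surface. In the skin and in the adult mammary gland these genes are known from the basal cells, which also carry Krt5 and Krt14, whereas Krt8 marks luminal and simple epithelia.

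The 9 genes followed here, Itga3, Itga6, Itgb1, Itgb4, Col17a1, Dst, Lama3, Lamb3 and Bcam, were chosen by name as hemidesmosome genes and epithelial integrins, out of 30406 genes shared by the gene lists of all libraries, and all 9 were found in each list. They were measured by single-cell RNA-seq (10x 3′ chemistry) in wild-type C57B6 female mice (C57 B6/N in the study's methods) on embryonic days E13.5, E14.5 and E15.5, and in newborns (P0), with 1 library per stage. Each library pooled mammary tissue of several animals, and live cells were sorted into EpCAM+ and EpCAM- cells after cells with CD45, CD31 or Ter119 had been excluded. The antibody panel also held CD49f, the product of Itga6. Because a stage was sequenced once, stage and library cannot be told apart, no test between stages was possible, and all intervals cover counting error within a library and not the spread between animals.

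Cells with at least 5000 UMIs (unique molecular identifiers, 1 for each transcript molecule counted) and at most 6% mitochondrial UMIs were kept, which left 235 of 981 barcodes from E13.5, 76 of 807 from E14.5, 816 of 2642 from E15.5 and 503 of 1466 from newborns. A cell was called epithelial when its summed Epcam, Krt8, Krt18, Krt5 and Krt14 UMIs exceeded those of Col1a1, Col1a2 and Col3a1, and mesenchymal in the reverse case. This gave 98 epithelial and 135 mesenchymal cells for E13.5, 45 and 31 for E14.5, 532 and 283 for E15.5, and 230 and 273 for newborns. The median depth was 18968 to 26725 UMIs per cell in embryonic epithelium and 9973 in newborn epithelium. No kept barcode was shared between libraries. As a check of these classes, Cdh1, the epithelial cadherin, which the rule did not use, stood at 147 to 539 CPM (UMIs of the gene per 1000000 UMIs of the summed cells) in epithelium and at 1.19 to 15.8 CPM in mesenchyme. Epidermal markers (Krt1, Krt10, Krt15, Krtdap, Sbsn and Lor) summed to between 516 and 1634 CPM in embryonic epithelium and to 97.2 CPM in newborn epithelium. The paper also reports Krtdap in its luminal-like mammary cluster at E15.5. In P0 mesenchyme the 3 haemoglobin markers summed to 8250 CPM, and in every other tissue class the sum lay between 0 and 14.2 CPM. The 4 endothelial markers summed to between 1.47 and 5.498 CPM in epithelium, where Cdh5 and Kdr were at 0, Emcn was found only at E15.5 and the other UMIs were of Pecam1. The 4 immune markers summed to between 2.39 and 11.2 CPM in the embryonic classes, where Ptprc was at 0 and 1 or 2 of the 4 had a UMI. In newborns all 4 were found, at 8.41 CPM in epithelium and 96.1 CPM in mesenchyme. In mesenchyme the endothelial markers summed to between 14.9 and 35.1 CPM, and Rgs5, Pdgfrb, Notch3 and Kcnj8, listed as mural markers, to between 81.7 and 118 CPM.

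Positions are those of GENCODE M21 on the GRCm38 mouse assembly. Itga3 (ENSMUSG00000001507) is at chr11:95044474-95076801 and Itgb4 (ENSMUSG00000020758) at chr11:115974709-116008412. Itga6 (ENSMUSG00000027111) is at chr2:71745616-71858416 and Itgb1 (ENSMUSG00000025809) at chr8:128685654-128733200. Col17a1 (ENSMUSG00000025064) is at chr19:47646344-47692094 and Bcam (ENSMUSG00000002980) at chr7:19756131-19771016. Dst (ENSMUSG00000026131, chr1:33908225-34308661) and Lamb3 (ENSMUSG00000026639, chr1:193207699-193343878) share a chromosome and lie far apart on it. Dst has 41155 exon bases in a gene of 400437 bases and encodes an epithelial hemidesmosome form as well as larger forms of nerve and muscle, and its UMI count sums over all of them. Exons of Itgb4, Dst, Lama3 and Bcam overlap exons of genes on the other strand, with 537 shared bases for Itgb4 and up to 1037 for Dst, and the strand setting of the counting is not given in the sources used here.

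Upstream sequences are shown for Col17a1 and Itga3, which were both higher in P0 epithelial cells with smooth muscle genes, and for Itgb1, which differed less than 2-fold between epithelium and mesenchyme. RefSeq promoter windows (GRCm38.p6) were matched for 6 of the 9 genes, and not for Itga6, Itgb4 and Lama3. The windows are cut where GENCODE places the start of the gene, and are written 5′ to 3′ on the strand of the gene. They cover chr19:47692095-47692292 (minus strand) for Col17a1, chr11:95076802-95076964 (minus strand) for Itga3 and chr8:128685404-128685653 (plus strand) for Itgb1. Capitals mark the letters TATAAA or GGAATG, searched on both strands.
Col17a1: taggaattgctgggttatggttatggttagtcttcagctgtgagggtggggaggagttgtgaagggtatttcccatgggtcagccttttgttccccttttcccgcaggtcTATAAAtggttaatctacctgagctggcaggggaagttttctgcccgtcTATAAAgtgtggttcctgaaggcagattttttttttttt
Itga3: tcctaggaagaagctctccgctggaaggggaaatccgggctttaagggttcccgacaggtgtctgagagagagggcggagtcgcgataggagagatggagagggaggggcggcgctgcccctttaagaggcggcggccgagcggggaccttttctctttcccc
Itgb1: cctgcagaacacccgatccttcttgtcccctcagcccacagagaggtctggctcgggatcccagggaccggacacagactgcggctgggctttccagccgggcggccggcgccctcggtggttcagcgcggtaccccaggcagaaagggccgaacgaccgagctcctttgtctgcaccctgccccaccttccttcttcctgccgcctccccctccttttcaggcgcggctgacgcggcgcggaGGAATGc

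The Col17a1 window held TATAAA 2 times, with the nearer match starting 39 bases and the farther one 88 bases before the gene, and 9.08% of all 32851 promoter windows of that length hold it. Its GC content was 45.5%, against a median of 51.5% over those windows. For Col17a1 and Itga3, the windows of all promoters were cut to the same length counted from their upstream end, and not at a gene start. The shares and the median for these 2 lengths are therefore of windows placed differently from the printed ones. The Itga3 and Itgb1 windows held no TATAAA and were richer in GC, at 62.6% and 68.0%, and both held GGGCGG (in 18.4% and 32.7% of windows of their lengths). The GGAATG in the Itgb1 window starts 7 bases before the gene, and 12.6% of windows hold those letters. The AP-1 letters TGANTCA, the letters CCAAT and the p63 half-site, searched in the same way, were found in none of the 3 windows, and 4.47% to 6.75%, 21.9% to 33.8% and 1.04% to 1.63% of windows of these lengths hold them. A match of letters is a description of the sequence and shows no binding.

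Most of these genes were epithelial at every stage. Counting a gene as higher or lower when its level differed at least 2-fold, among genes with at least 20 UMIs in both tissues together, 7 of the 8 genes that passed this minimum were higher in epithelium at E13.5, where 10.3% of all genes tested were. The same was true of 7 of 8 at E14.5, where the share of all genes was 14.7%. After thinning every cell to 5000 UMIs 4 genes were higher at E14.5, but thinning can also take genes below the minimum. The number of genes that then passed and the share of all genes are not given here. At E15.5 8 of 9 were higher, where the share was 16.8%, and in newborns 7 of 9, where it was 24.7%. None was 2-fold lower, where the share of all genes was 21.9%, 17.5%, 22.5% and 18.9% in the order of the stages. Lamb3 did not reach the minimum at E13.5 and E14.5, with 12 and 10 UMIs in all. The median log2 ratio of the members that passed was 3.50, 3.47, 3.80 and 4.66 in the order of the stages, and that of all genes tested was -0.18, 0.02, -0.10 and 0.30. Itgb1 was within 2-fold at all stages, and Dst in newborns. In bulk sums of this kind, fewer cells with a transcript and less of it per cell cannot be told apart, so shares of cells are given where they differ.

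**Figure D1:**
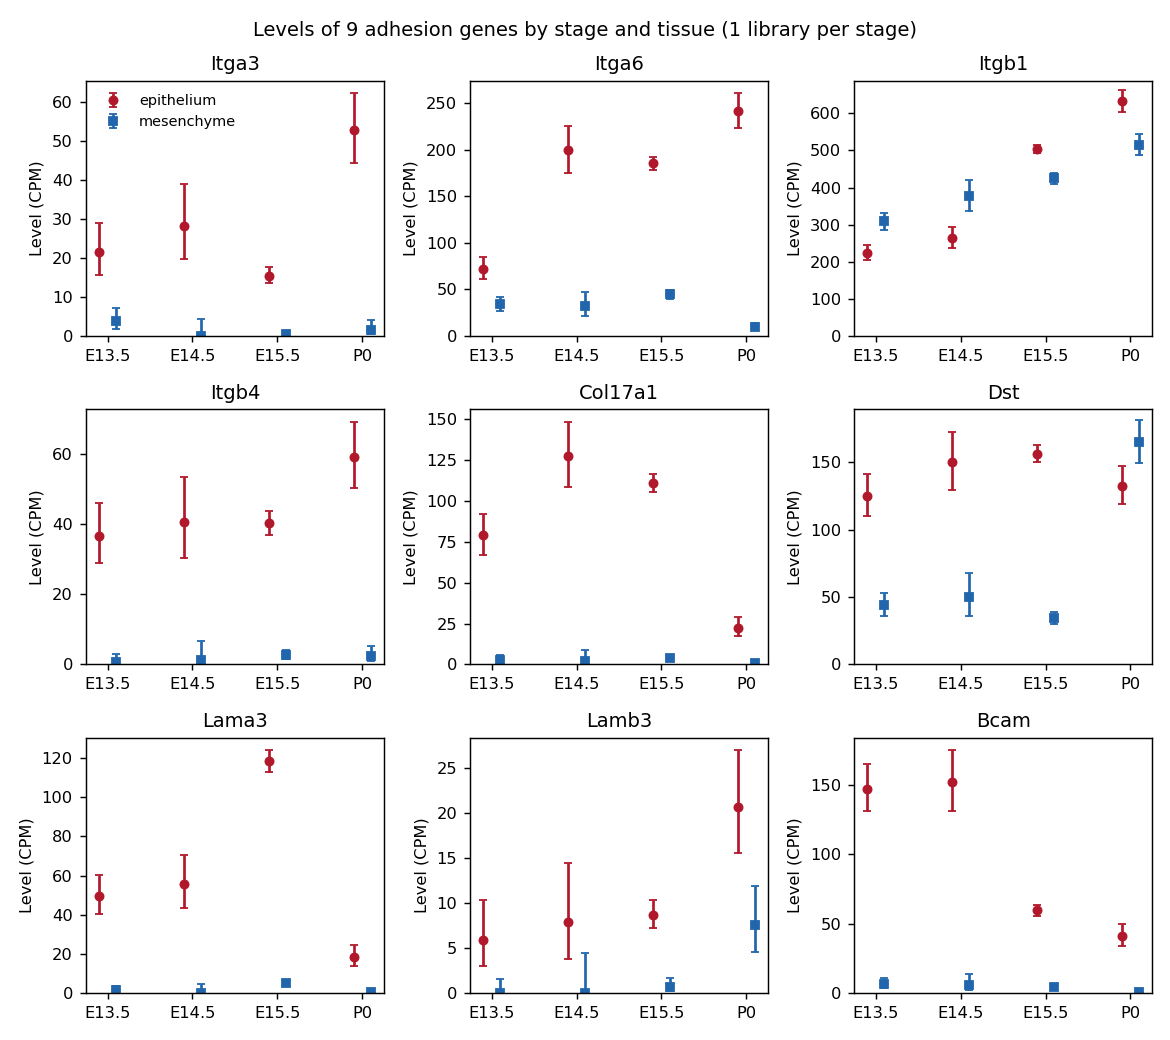
Level of each gene in CPM (y axis, from 0, with its own scale per panel) in epithelial cells (red circles) and mesenchymal cells (blue squares) of the 4 libraries (x axis), with exact 95% Poisson intervals that cover counting error only. Col17a1 and Lama3 sit lowest in P0 epithelium at 22.6 and 18.4 CPM, Itgb1 is close between tissues in each library, and Dst in mesenchyme is at 165 CPM at P0 and at 34.3 to 50.1 CPM before.

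Itga6, the alpha chain of the hemidesmosome integrin, was at 72.0 CPM in E13.5 epithelium (exact 95% Poisson interval 60.8 to 84.6). It reached 199 CPM at E14.5 (176 to 226) and 186 CPM at E15.5 (179 to 193), and newborn epithelium held 242 CPM (223 to 261). E13.5 therefore stood below the other stages, and the intervals of E14.5 and E15.5 overlapped. From E13.5 to E14.5 the ratio was 2.77 (exact conditional 95% interval 2.25 to 3.42), and Itga6 was the only one of the 9 genes to differ 2-fold in that step, in which 12.1% of all genes tested were 2-fold higher and 4.96% lower. In mesenchyme it was at 34.0, 32.2 and 44.8 CPM in the embryonic libraries and at 9.57 CPM at P0. The epithelial excess was thus 2.11-fold at E13.5 (1.60 to 2.81) and 25.3-fold at P0 (16.8 to 39.7).

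Its partner Itgb4, whose long cytoplasmic tail reaches the keratin-binding plaque, varied little over the embryonic stages. E13.5 epithelium held 36.7 CPM (28.9 to 46.0), E14.5 epithelium 40.8 CPM (30.5 to 53.6), E15.5 epithelium 40.3 CPM (37.1 to 43.7) and newborn epithelium 59.3 CPM (50.3 to 69.4). The embryonic intervals overlapped, and P0 was 1.47-fold above E15.5 (1.22 to 1.76), under the 2-fold used for a call. Mesenchymal cells held 2, 1, 19 and 6 Itgb4 UMIs in the order of the stages, and the ratio of epithelium over mesenchyme was between 15.4 and 44.2. At E15.5, 53.0% of epithelial cells had a UMI of both Itga6 and Itgb4 (exact binomial interval 48.7 to 57.3) against 2.47% of mesenchymal cells (1.00 to 5.03), at like median depths of 24696 and 24376 UMIs. After thinning every cell to 5000 UMIs the shares were 8.08% and 0.707%. UMIs of all of Itga6, Itgb4, Col17a1 and Dst were found together in 185 of 532 epithelial cells at E15.5 (34.8%, 30.7 to 39.0) and in 2 of 283 mesenchymal cells, and in newborns in 5 of 230 epithelial cells (2.17%) and in 0 of 273 mesenchymal cells, which allows a share of up to 1.10% by the floor of 3 counts (1.34% by the exact interval). After thinning, 14 of 532 epithelial cells at E15.5 (2.63%) and 0 of 230 in newborns held all of them.

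Itga3, the alpha chain that joins Itgb1 in laminin receptors outside the hemidesmosome, was at 21.6 CPM in E13.5 epithelium (15.7 to 28.9) and at 28.3 CPM in that of E14.5 (19.8 to 39.1). E15.5 epithelium held 15.46 CPM (13.49 to 17.6) and newborn epithelium 52.8 CPM (44.3 to 62.4). E13.5 and E14.5 overlapped, E13.5 and E15.5 did so too, and newborns stood above all of them, 3.41-fold over E15.5 (2.74 to 4.24). Mesenchyme held 9, 0, 3 and 4 UMIs of it in the order of the stages. At E14.5 its level in epithelium was at least 7.90-fold higher, set against the floor of 3 counts that 0 of the 838030 mesenchymal UMIs allows, and the counting interval of the ratio starts at 6.10. After thinning, the same floor gave 0.919, which bounds no difference, so the call at E14.5 rests on the full depth.

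Itgb1, the shared beta chain, was at 225 CPM in epithelium (204.7 to 246) and 308 CPM in mesenchyme (287 to 331) of E13.5, and at 264 CPM (236 to 294) and 377 CPM (337 to 421) in those of E14.5. At E15.5 it was at 504 CPM in epithelium (492 to 515) and 425 CPM in mesenchyme (410 to 440), and newborns held 633 CPM (603 to 664) and 516 CPM (488 to 544). In both tissues the level was higher in each later library, though the epithelial intervals of E13.5 and E14.5 and the mesenchymal intervals of E14.5 and E15.5 overlapped. Mesenchyme was ahead in both earlier libraries, at a ratio of epithelium over mesenchyme of 0.73 (0.65 to 0.82) and 0.70 (0.60 to 0.82), and epithelium in both later ones, at 1.19 (1.14 to 1.24) and 1.23 (1.14 to 1.32). At E14.5 the epithelial level differed between ranges of cells, as given below. Without cells that had 2 or more UMIs of endothelial, Schwann, melanocyte, mural or immune markers, which left 29 epithelial and 48 mesenchymal cells, the E13.5 ratio was 1.03. An alternative added after the data were seen left out cells with 2 or more UMIs of defining markers or 10 or more haemoglobin UMIs. It kept 95 epithelial and 117 mesenchymal cells, and the E13.5 ratio was 0.760.

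**Figure D2:**
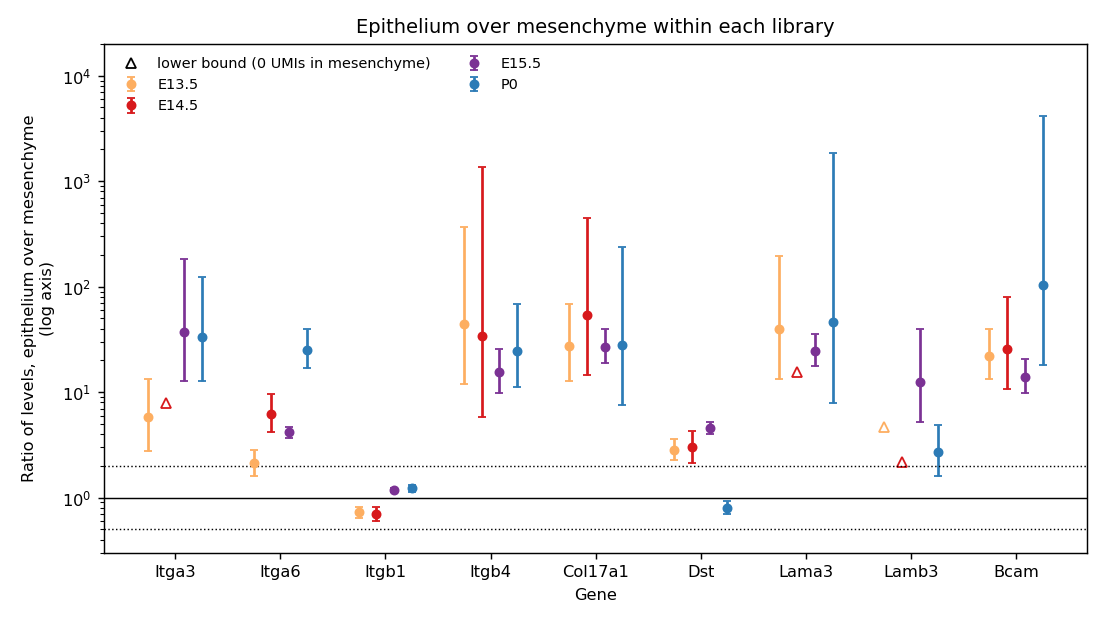
Ratio of the level in epithelium over that in mesenchyme (y axis, log scale) for each gene (x axis) in each library (colours), with exact 95% intervals for counting error. Open triangles are lower bounds where mesenchyme had 0 UMIs, the solid line is a ratio of 1 and the dotted lines are 2-fold either way. Itgb1 lies between 0.70 and 1.23, Dst falls to 0.80 at P0, and Itgb4, Col17a1, Lama3 and Bcam lie above 10 in all libraries.

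Col17a1, the collagen that spans the membrane at the hemidesmosome, was at 78.9 CPM in E13.5 epithelium (67.1 to 92.0). It was at 127 CPM in E14.5 (108 to 148) and 111 CPM in E15.5 epithelium (106 to 117), and at 22.6 CPM in newborn epithelium (17.2 to 29.1). The E14.5 and E15.5 intervals overlapped, and newborns were at 0.203 times the E15.5 level (0.154 to 0.263). The share of epithelial cells with a UMI was 68.6% at E15.5 (64.5 to 72.5) and 9.57% in newborns (6.09 to 14.1), and after thinning to the same depth it was 36.8% and 6.09%. In mesenchyme, which should lack the gene, 4.24% of the E15.5 cells had a UMI. Mesenchyme held 7, 2, 30 and 2 UMIs in the order of the stages. Of the 30 at E15.5, 16 came from a single cell with 72390 UMIs that carried 596 UMIs of the epithelial and 691 of the mesenchymal markers. The same cell gave 8 of the 19 Itgb4 UMIs, 12 of the 31 Bcam UMIs and 9 of the 35 Lama3 UMIs of E15.5 mesenchyme, and it is left out under the strict tissue rule, in which one marker sum had to be 4 times the other. Under that rule the E15.5 ratio of Itgb4 was 35.9 in place of 15.4.

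Dst, the plakin that ties the plaque to keratin, was at 125 CPM in E13.5 epithelium (110 to 141), 150.0 CPM in that of E14.5 (129 to 173), 157 CPM in that of E15.5 (150.2 to 163) and 133 CPM in newborns (119 to 147). The stages were close, with neighbouring intervals overlapping except those of E15.5 and P0. In mesenchyme Dst was at 44.0 CPM for E13.5 (36.0 to 53.2), 50.1 CPM for E14.5 (36.1 to 67.7) and 34.3 CPM for E15.5 (30.2 to 38.8), against 165 CPM in newborns (149.6 to 182). Newborn mesenchyme thus lay above every embryonic library. The ratio of epithelium over mesenchyme was 2.84, 2.99 and 4.57 in the embryonic libraries and 0.80 at P0 (0.70 to 0.93). The P0 mesenchymal UMIs were spread over cells, since 170 of 273 cells had one and the highest cell held 2.17% of them. Without cells that had 2 or more UMIs of defining markers of other cell types or 10 or more haemoglobin UMIs, an alternative added after the data were seen, the P0 ratio was 0.82. Which Dst forms each tissue transcribed was not tested.

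Lama3 (ENSMUSG00000024421, chr18:12333819-12583013) and Lamb3, which encode chains of the laminin that these receptors bind, moved apart. Lama3 was at 49.5 CPM in E13.5 epithelium (40.3 to 60.1), 55.8 CPM in that of E14.5 (43.6 to 70.3), 118 CPM in that of E15.5 (113 to 124) and 18.4 CPM in newborns (13.54 to 24.3). It was 2.12-fold higher at E15.5 than at E14.5 (1.67 to 2.73), and 1.56-fold after thinning to 5000 UMIs. In newborns it was at 0.155 times the E15.5 level (0.114 to 0.207), and 10.9% of cells had a UMI of it (7.16 to 15.6) against 84.6% at E15.5 (81.2 to 87.5), and after thinning 7.39% against 37.6%. Lamb3 was low throughout, at 5.88 CPM (3.04 to 10.3), 7.85 (3.77 to 14.4), 8.68 (7.22 to 10.3) and 20.7 (15.52 to 27.0) in the same order, with newborns 2.38-fold over E15.5 (1.70 to 3.30) and the embryonic intervals overlapping. In mesenchyme Lama3 had 3, 0, 35 and 1 UMIs. Lamb3 had 0, 0, 5 and 19, so that at P0 it reached 7.58 CPM there (4.56 to 11.8).

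Bcam was at 147 CPM in E13.5 epithelium (131 to 165) and 152 CPM in that of E14.5 (132 to 175). It was lower in both later libraries, at 59.5 CPM in E15.5 (55.6 to 63.7) and 41.3 CPM in newborn epithelium (33.9 to 49.9). E13.5 and E14.5 overlapped, and E15.5 was at 0.391 times the E14.5 level (0.334 to 0.459). The ratio of epithelium over mesenchyme lay between 13.9 at E15.5 and 104 at P0, where 1 UMI was found in mesenchyme (interval 18.2 to 4129).

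The list is short, so the counts called in the steps between stages are set beside the shares of all genes. From E14.5 to E15.5 1 of the 9 was 2-fold higher (Lama3) and 1 lower (Bcam), where 8.07% of all genes were higher and 19.4% lower. From E15.5 to P0 2 were higher (Itga3 and Lamb3) and 2 lower (Col17a1 and Lama3), where 15% of all genes were higher and 18.5% lower. The median log2 ratio of the 9 genes in these 3 steps was 0.26, -0.02 and 0.33, and that of all genes tested was 0.20, -0.28 and -0.11. The steps share the libraries of E14.5 and E15.5. The epidermal marker sum given above also differed between the stages. So did Krt5, at 775 CPM in E15.5 and 17.6 CPM in newborn epithelium, and Trp63, at 79.3 and 3.82 CPM. Of the listed periderm markers Krt6a, Krt4, Grhl3 and Krt17, the paper reports Grhl3 in its luminal-like cluster at E15.5. These markers summed to 996, 382, 909 and 578 CPM in epithelium, in the order of the stages. Whether these differences bear on the steps was not tested. Among cells with more Krt8 and Krt18 than Krt15, Krt1, Krt10 and Krtdap UMIs, a restriction added after the data were seen, Lama3 was 1.35-fold higher from E14.5 to E15.5 in place of 2.12, and Bcam at 0.747 in place of 0.391, so neither differed 2-fold. There 7.78% of all genes were higher and 18.4% lower in that step. From E13.5 to E14.5 Itga6, Col17a1, Dst and Lama3 were 2-fold higher in these cells, in which Itga3 and Lamb3 did not reach 20 UMIs, where 13% of all genes were higher and 8.99% lower, and Itga6 alone was among all epithelial cells. From E15.5 to P0 the same restriction gave 0.254 for Col17a1 and 3.25 for Itga3. It left out none of the 230 P0 epithelial cells, so it cannot address the mix of cells at P0. There Col17a1 was at 93.9 CPM in cells with smooth muscle genes and at 9.09 CPM in the others, and Itga3 at 96.3 and 44.6 CPM.

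The low counts in mesenchyme can be set beside genes that mesenchyme should lack. At E15.5, mesenchyme held Cdh1 at 3.69% of its epithelial level and Trp63 at 6.25%, and 66.7% of those Trp63 UMIs came from 1 cell. Itga3, Col17a1, Lama3, Itgb4, Bcam and Lamb3 were at 2.67% to 7.94%. Of these, Itgb4 at 6.49%, Bcam at 7.17% and Lamb3 at 7.94% were above both, on 19, 31 and 5 mesenchymal UMIs. The cell of 72390 UMIs described for Col17a1 gave 8 of those of Itgb4 and 12 of those of Bcam. The percentages carry no interval, and the source of these UMIs was not tested. Itga6 at 24.1%, Dst at 21.9% and Itgb1 at 84.3% were further above. At P0 Itga6 was at 3.96%, beside Cdh1 at 2.66%, and Lamb3 was at 36.7% and Dst at 124%. At E13.5 Itga3 was at 17.3% on 9 UMIs, and Cdh1 at 1.13%.

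Within the epithelium, cells were ordered by keratins and Krtdap, which are not members of the list. A cell was put in the simple keratin range when Krt8 and Krt18 UMIs exceeded those of Krt15, Krt1, Krt10 and Krtdap, and otherwise in the epidermal keratin range. These are ranges of cells and not cell types, and 16 of 98 cells of E13.5, 13 of 45 of E14.5 and 142 of 532 of E15.5 lay within 2-fold of the cut. All 230 epithelial cells of P0 fell in the simple keratin range. The paper reports Krtdap in its luminal-like mammary cluster at E15.5. In the E15.5 epidermal keratin range Krtdap was at 2042 CPM and Krt8 at 484 CPM, against 315 and 1128 CPM in the simple keratin range. Whether the epidermal keratin range held luminal-like mammary cells was not tested. The paper removed skin cells before it described the mammary epithelium, and no such step was taken here. The periderm markers summed to 996 CPM in E13.5, 382 CPM in E14.5, 909 CPM in E15.5 and 578 CPM in P0 epithelium. They include Grhl3, which the paper also reports in its luminal-like cluster. Which cells of either range were skin, periderm or mammary was not tested, so the ranges do not stand for skin against mammary bud.

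At E13.5 5 of the 8 genes that passed the minimum were 2-fold higher in the epidermal keratin range (51 cells) than in the simple keratin range (47 cells), and none was lower, where 4.36% of all genes were higher and 10.8% lower. Col17a1 was at 117 CPM (98.5 to 138) against 23.0 CPM (13.8 to 35.9) and Bcam at 207 (182 to 234) against 60.4 (44.9 to 79.7). Itga3, with 39 and 5 UMIs, was 5.31-fold higher (2.09 to 17.3), Dst 2.37-fold (1.75 to 3.24) and Lama3 2.19-fold (1.37 to 3.61). Over the alternatives Col17a1 ranged from 4.67-fold to 9.52-fold, the highest after thinning, and Lama3 from 1.97-fold to 2.76-fold. Neither chain of the hemidesmosome integrin was called 2-fold apart. Itga6 was at 66.7 and 79.8 CPM, a ratio of 0.84 (0.60 to 1.18). Itgb4 was at 40.4 and 31.4 CPM, a ratio of 1.28 (0.78 to 2.15). Both intervals include 1, and that of Itgb4 also includes 2, so it does not exclude a 2-fold difference. Itgb1 had a ratio of 1.17 (0.96 to 1.42).

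**Figure D3:**
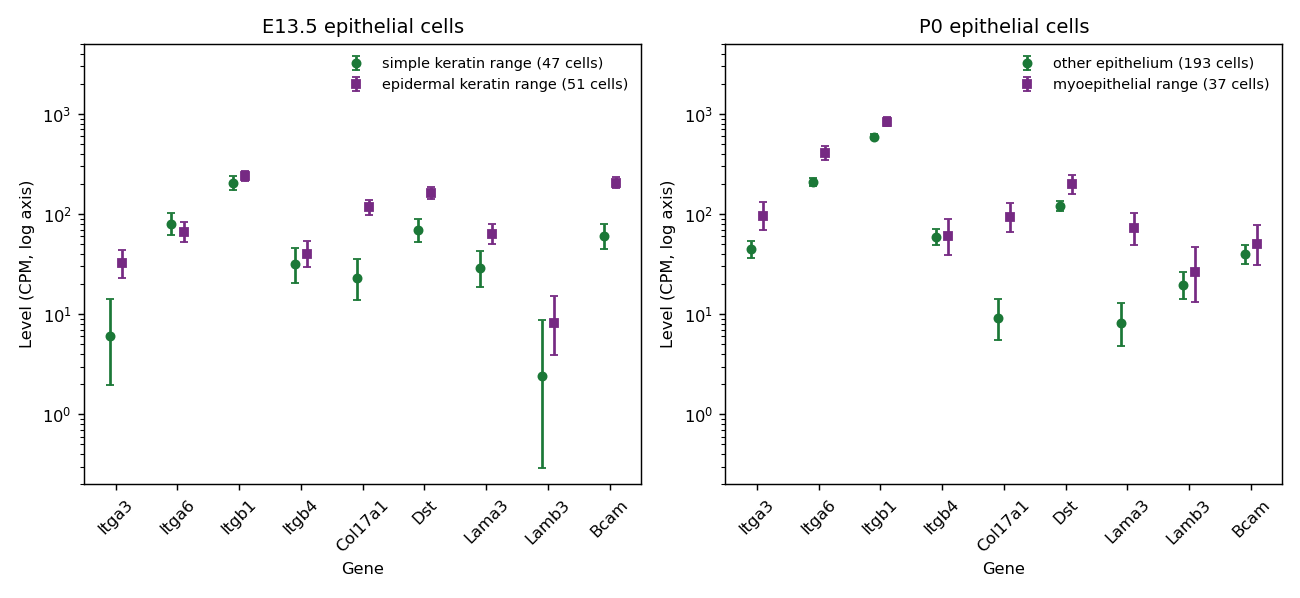
Level of each gene in CPM (y axis, log scale) in ranges of epithelial cells at E13.5 (left, simple keratin range in green, epidermal keratin range in purple) and at P0 (right, cells with at least 5 smooth muscle UMIs in purple, other epithelial cells in green), with exact 95% Poisson intervals. Col17a1 is apart in both panels, at 117 against 23.0 CPM and at 93.9 against 9.09 CPM, and Itgb4 overlaps in both.

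At the 2 later embryonic stages the ranges differed less. At E14.5 Bcam was 2.92-fold higher in the epidermal keratin range (2.03 to 4.30) and Lama3 lower, at a ratio of 0.40 (0.24 to 0.66), so that 1 of 8 was higher and 1 lower, where 8.5% of all genes were higher and 8.69% lower. Itgb1 was just inside the 2-fold limit at 0.504 (0.403 to 0.629), with 188 CPM (159 to 222) against 373 CPM (323 to 430). Mesenchyme of E14.5 held 377 CPM (337 to 421), so only the interval of the epidermal keratin range lay below that of mesenchyme. At E15.5 none of the 9 was 2-fold apart, where 3.9% of all genes were higher and 6.43% lower. Col17a1 came nearest, at 160.3 CPM (149 to 173) against 88.9 CPM (83.1 to 95.001), a ratio of 1.80 (1.63 to 1.99), and Itga6 was lower in the epidermal keratin range, at a ratio of 0.69 (0.63 to 0.76).

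At P0 the epithelium was divided by the smooth muscle genes Acta2, Tagln, Myh11 and Cnn1, which mark myoepithelial cells, the contractile basal cells of the gland. After thinning to 5000 UMIs, 37 of 230 cells had at least 5 UMIs of them, and 21 cells had 3 to 7 and so lay near this limit. These 37 cells held 38 of the 46 Krt5 UMIs and 7 of the 10 Trp63 UMIs of P0 epithelium, and 29.8% of its Krt14 UMIs. A Krt5 UMI was found in 8 of the 37 cells and a Trp63 UMI in 4, while Krt8 was found in 36. Krt8 was at 3597 CPM in them and at 5479 CPM in the other cells, so they are a range of cells and not a cell type. Col17a1 was at 93.9 CPM in them (66.8 to 128) and at 9.09 CPM in the other 193 cells (5.56 to 14.05), a ratio of 10.3 (5.88 to 18.7). Lama3 was at 72.2 CPM (48.7 to 103) and 8.19 CPM (4.85 to 12.9), a ratio of 8.82 (4.76 to 16.8). Of all P0 epithelial UMIs, these cells thus held 66.1% of Col17a1 and 62.5% of Lama3. A Col17a1 UMI was found in 13 of 37 cells against 9 of 193, and a Lama3 UMI in 16 of 37 against 9 of 193.

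Itga3 was 2.16-fold higher in the same cells (1.46 to 3.15), and so 3 of the 9 genes were 2-fold higher, where 5.43% of all genes were. Itga6 was at 409 CPM (350.1 to 476) and 210.1 CPM (191 to 230.1), a ratio of 1.95 (1.62 to 2.33) just under the limit. Over the alternatives the ratio ranged from 1.60 to 2.16 for Itga3 and from 1.63 to 2.21 for Itga6, so which of them passed 2-fold depended on the setting. Col17a1 ranged from 9.13 to 18.0 and Lama3 from 7.61 to 12.9. Itgb4 was at 60.2 CPM (39.0 to 88.9) and 59.1 CPM (49.4 to 70.2), a ratio of 1.02 (0.64 to 1.57) that was 0.553 after thinning, and a UMI of it was found in 43.2% and 44.0% of the cells. Dst had a ratio of 1.64 (1.26 to 2.11), Itgb1 of 1.41 (1.25 to 1.58), Lamb3 of 1.35 (0.63 to 2.67) and Bcam of 1.28 (0.75 to 2.08), the last 2 with intervals that include 1. The level of Col17a1 in the 37 cells was close to its level in the whole E15.5 epithelium, 111 CPM, and that of Lama3 was below 118 CPM there.

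Correlations with Krt5, Krt14 and Krt8 were computed over the epithelial cells of each library on log2(UMI + 1) after thinning every cell to 5000 UMIs. The cells of a library share its preparation, and the counts are sparse, so the coefficients describe these cells only. The paper reports Krt5, Trp63, Krt8 and Krt18 together in each of its mammary clusters at E15.5. Whether the coefficients follow basal or luminal lineage was not tested. Some members are found in few thinned cells, such as Lamb3 in 2.04% at E13.5, and Col17a1 and Lama3 in 6.09% and 7.39% at P0. At E13.5 (98 cells) the correlation with Krt14 was above 0 for all 9 genes, at a median r of 0.26 against -0.01 over 5500 genes, and 47.9% of those genes were above 0. It was highest for Bcam (0.37), Dst (0.33) and Itgb1 (0.31). With Krt5 it was below 0 for all 9, at -0.19 or nearer to 0, where 49.3% of the 5500 genes were above 0, and those of Itgb1 and Itgb4 changed sign under an alternative. With Krt8 it was -0.33 for Col17a1, -0.25 for Bcam and -0.24 for Dst, and 0.15 for Itga6. The Bcam coefficient with Krt8 was -0.46 without thinning and 0.18 within the simple keratin range.

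At E15.5 (532 cells) the coefficients were small in size. The largest were -0.22 between Col17a1 and Krt8, 0.21 between Itgb1 and Krt14 and 0.17 between Bcam and Krt5. Of 5051 genes compared, 1.13%, 99.6% and 99.8% lay below these in turn. The median over the 9 genes was 0.01 with Krt5, 0.05 with Krt14 and -0.06 with Krt8, against -0.005, 0.02 and 0.02 over all genes. Those above 0 were 5, 7 and 2 of the 9 in the same order, where 47.1%, 62.1% and 66.0% of all genes were. At P0 (230 cells) Col17a1 had r = 0.52 with Krt5 and -0.39 with Krt8, and Lama3 0.16 and -0.33. Krt5 was found in 11 of the 230 cells, and in 3.91% of them after thinning, so its coefficients rest on few cells. Itga3 had r = 0.26 with Krt14. E14.5 has 45 cells, and there Lama3 had r = 0.38 with Krt8, opposite in sign to P0.

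**Figure D4:**
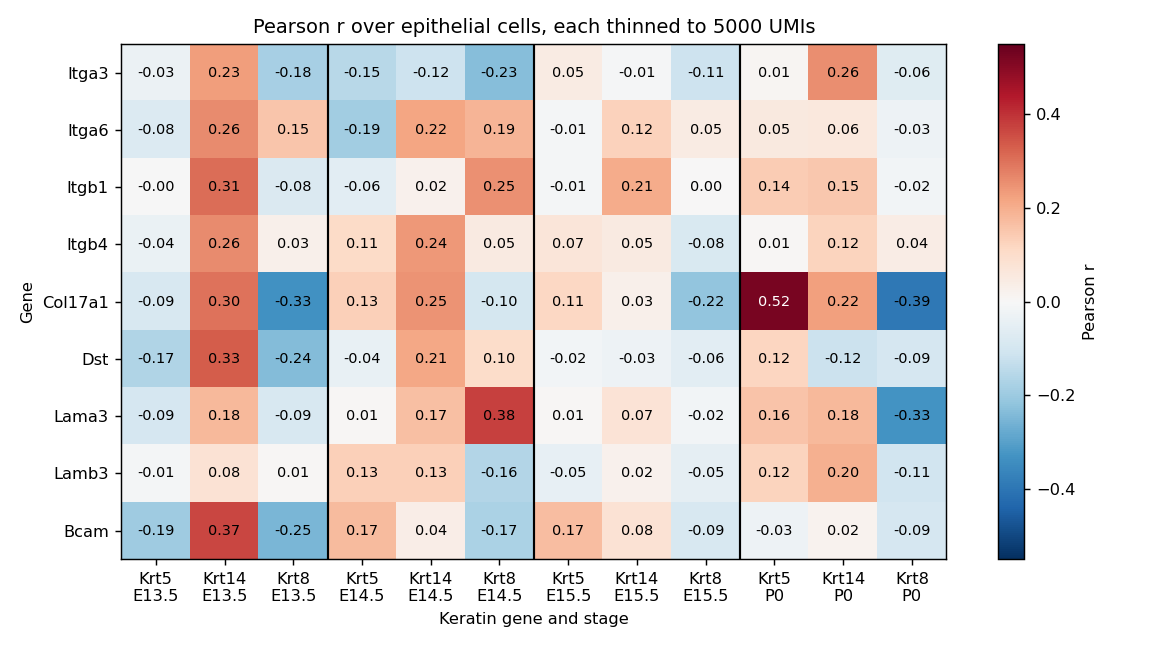
Pearson r between each gene (rows) and Krt5, Krt14 or Krt8 (columns, grouped by stage) over the epithelial cells of each library, thinned to 5000 UMIs. Colour runs from blue (below 0) to red (above 0), and the value is written in each field. The Krt14 column of E13.5 is above 0 for all 9 genes, and Col17a1 is at 0.52 with Krt5 and -0.39 with Krt8 at P0.

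The coefficients between the 9 genes were mostly small. The median r over their 36 pairs lay between 0.06 and 0.08 in the 4 libraries. No such median is given for other gene pairs, and some members are found in few thinned cells. Whether these values are low for genes of such counts was therefore not tested. The highest pair was Dst and Bcam for E13.5 (0.38), Col17a1 and Dst for E14.5 (0.47), Itgb1 and Lama3 for E15.5 (0.20) and Col17a1 and Lama3 for newborns (0.31). Among 5052 genes found in at least 10% of thinned E15.5 epithelial cells, those most like Col17a1 were BC100530 (0.32), Has2 (0.32) and Fth1 (0.31), and those most like Itgb1 were Fst (0.29), Calm2 (0.26) and Rtn4 (0.26). Bcam was most like Col17a1 (0.20), and Lama3 was most like Tpm1 (0.20), Itgb1 (0.20) and Itgb6 (0.19). For Itga3, Itga6, Itgb4, Dst and Lamb3 the most similar gene was Glrx2 (0.18), Runx1 (0.22), Vwa5a (0.18), Atf6 (0.22) and Mark1 (0.19). Itga3 and Lamb3 were found in only 6.20% and 5.08% of these thinned cells. The most similar genes were picked as the highest of 5052 coefficients. Whether their values exceed those reached by unrelated genes was not tested.

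The other genes of the adhesion system placed the 9 in context. Plec, the other plakin of the plaque, and Cd151, a tetraspanin that binds laminin receptors, were 2-fold higher in epithelium in all 4 libraries. Ratios were 2.57 to 4.79 for Plec and 3.85 to 45.4 for Cd151, the highest at E14.5 on 1 mesenchymal UMI. Krt5 and Krt14, the other genes of that list, were used to assign the tissue. The shares of all genes that were 2-fold higher in epithelium were 10.3%, 14.7%, 16.8% and 24.7% in the order of the stages, and those lower 21.9%, 17.5%, 22.5% and 18.9%, for the counts that follow. Of 13 laminin and anchoring genes, 5 were 2-fold higher in epithelium and 2 lower at E13.5. The counts were 4 and 3 for E14.5, 4 and 2 for E15.5, and 3 and 8 of the 11 that passed in newborns. Lama5, the alpha chain of another epithelial laminin, was 20.1-fold to 50.2-fold higher in epithelium. These ratios rest on 4, 2, 8 and 3 mesenchymal UMIs in the order of the stages. Nid1 and Nid2, which link laminin to collagen networks, were mesenchymal in each library.

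Of 12 other integrin genes, 2 were 2-fold higher in epithelium and 4 lower of the 9 that passed at E13.5. The counts were 2 and 3 of 7 for E14.5, 2 and 6 of 11 for E15.5, and 3 and 5 of 11 for newborns. Itgb6, an epithelial beta chain that pairs with Itgav, was higher in epithelium in all of them, at 17.1, 18.8, 30.7 and 47.4 CPM. Itga1 was lower in all of them. Among 11 adaptors and other receptors, 3, 4, 4 and 5 were higher in epithelium and 4, 4, 3 and 2 lower in the order of the stages. Of these, Fermt1, the kindlin of epithelia, Sdc4, a syndecan, and Cd9, a tetraspanin, were higher in each library.

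In the 37 P0 cells with smooth muscle genes, 6 of the 10 laminin and anchoring genes that passed were 2-fold higher and none lower, where 5.43% of all genes were higher and 12.8% lower. Col4a1 was at 636 CPM against 43.2, Col4a2 at 412 against 15.46 and Col7a1, the anchoring fibril collagen, at 91.5 against 5.91. Plec and Cd151 had ratios of 1.10 and 1.12 there.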

How the data were processed

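Female mouse mammary cells of 4 stages were measured, with 1 library per stage, grouped by the stage in the labels. The deposited files hold raw UMI counts per gene and cell barcode, which the authors made with Cell Ranger on the mm10 genome. The file headers give version 6.0.0, and 3.1.0 for E15.5, whose gene list differs, and the newborn tissue was dissociated by a different procedure. The lowest barcode held 500 UMIs. The antibody sort excluded doublets, and no doublet caller was run.

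Cells below 5000 UMIs or above 6% mitochondrial UMIs were left out, and the others were assigned to a tissue by the larger of 2 marker sums, 5 epithelial and 3 mesenchymal genes. UMIs were summed per library and tissue. Levels carry exact Poisson intervals, ratios exact conditional binomial intervals and shares of cells exact binomial (Clopper-Pearson) intervals, all at 95% and for counting error only. With 1 library per group no test was made. A gene was called at a ratio of at least 2 or at most 0.5 if both groups together held at least 20 UMIs, and a count of 0 was set to a floor of 3 counts. Correlations are Pearson's r on log2(UMI + 1) after thinning to 5000 UMIs. The genes they are set against have a UMI in at least 10% of the thinned cells, while the 9 genes and the keratins are given at any share. All 9 genes are named, with fixed lists of other adhesion genes and, for each of the 9, up to 3 genes of highest r in E15.5 epithelium. 1 gene of those lists is not reported here by name. The genes and lists were chosen with earlier results of these data known. Alternatives changed the UMI and mitochondrial limits, the tissue rule, thinning, the weighting of cells, the cells with markers of other types and the limits of the keratin and smooth muscle ranges. Promoter sequences came from RefSeq (GRCm38.p6) and gene positions from GENCODE M21. Python 3.11.15 with numpy 2.4.6, scipy 1.17.1 and matplotlib 3.10.9 was used, and the ratio and interval code was tested on simulated data.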

Additional observations from a re-analysis of the deposited data

Results flagged for a closer look

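Itgb1 and Dst changed sides between the tissues from one library to another. The log2 ratio of epithelium over mesenchyme for Itgb1 was -0.46 for E13.5 and -0.51 for E14.5, against 0.25 for E15.5 and 0.30 for newborns. That of Dst was 1.505, 1.58 and 2.19 in the embryonic libraries in the order of the stages and -0.31 in newborns. With 1 library per stage the differences between stages were not tested, and stage and library cannot be told apart. At E14.5 Itgb1 was at 373 CPM (323 to 430) in the simple keratin range. It was at 188 CPM (159 to 222) in the epidermal keratin range and at 377 CPM (337 to 421) in mesenchyme. At E13.5 these ranges were at 204 and 239 CPM, against 308 CPM in mesenchyme. Over the alternatives the ratio of Itgb1 ranged from 0.725 to 1.03 for E13.5, from 0.615 to 0.742 for E14.5, from 1.16 to 1.63 for E15.5 and from 1.21 to 1.30 for newborns. That of Dst in newborns ranged from 0.773 to 0.820. The haemoglobin markers were at 8250 CPM in newborn mesenchyme, and the newborn Dst ratio was 0.820 without cells holding 10 or more haemoglobin UMIs or 2 or more UMIs of defining markers of other types.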

How the results depend on the processing

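No paired analysis was possible because each stage has 1 library, and no replicate could be left out for the same reason. Of 608 alternative ratios, 549 stayed within their counting interval, 58 moved beyond it and 1, of a gene called 2-fold, crossed 1. This was Itga3 in epithelium over mesenchyme at E14.5, at 0.919 after thinning against 7.90, with 0 mesenchymal UMIs set to the floor of 3 counts in both, so that it shows no reversal and ends the call. Of 53 ratios of genes not called, 17 crossed 1 under an alternative, such as Itgb1 at E13.5 (1.03). Thinning also left 4 genes 2-fold higher in epithelium at E14.5 in place of 7, and 0 higher from E14.5 to E15.5 in place of 1. It can also take genes below the minimum of 20 UMIs, and the shares of all genes after thinning are not given here. A mitochondrial maximum of 10% put 1 gene, Col17a1, 2-fold higher in the epidermal keratin range of E15.5. The main count there was 0, and the main share of all genes 3.9%. In the simple keratin range alone, a choice made after the data were seen, 4 genes (Itga6, Col17a1, Dst and Lama3) were higher from E13.5 to E14.5 in place of 1, where 13% of all genes were, and 0 were higher and 0 lower from E14.5 to E15.5 in place of 1 each. Without the minimum of 20 UMIs the share of all genes called as higher was 18.1% for epithelium over mesenchyme at E13.5, and 23.6%, 5.24% and 34.2% for the successive steps between stages. The causes were not tested. Of 756 correlation coefficients under alternatives, 32 moved, and of 504 levels 62. Some coefficients near 0 also changed sign, such as Dst with Krt5 at E15.5 (-0.02) in 5 of 7 alternatives. Itgb4 with Krt5 at P0 (0.01) did so in 4 of 7. E14.5, with 45 epithelial and 31 mesenchymal cells, gives the least precise values.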

Other observations

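Other matrix and receptor genes of the fixed lists also differed between the E15.5 and newborn libraries. Fras1 and Frem2, extracellular matrix genes of the embryonic epithelial basement membrane, were at 82.2 and 18.2 CPM in E15.5 epithelium and at 4.21 and 6.50 CPM in newborn epithelium, ratios of 0.0512 (0.0255 to 0.0919) and 0.357 (0.205 to 0.584). Cd44, a hyaluronan receptor, was at 48.6 and 144 CPM in the same libraries, and Sdc1, a syndecan, at 55.3 and 135 CPM. In newborn mesenchyme, the nidogen gene Nid1 was at 1667 CPM and the collagen gene Col4a1 at 689 CPM, against 18.7 and 137 CPM in newborn epithelium. At E15.5 Col4a1 was at 75.3 CPM in mesenchyme and 70.2 CPM in epithelium. These are values of 1 library each, with no test between stages.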
